A study of Mus musculus with 8 samples.

Results

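The genes described here encode the proteins of the mitochondrial ribosome. They were taken as every mouse gene whose official symbol is Mrpl or Mrps followed by a number and at most 1 letter, with pseudogenes left out. The rule reads symbols and no measured value, but it was chosen with earlier results of these data known. The rule took 77 of the 37310 genes in the deposited table. Of these, 76 were abundant enough to be tested and 1, Mrpl19, was not. The reference annotation lists 78 such genes, and the remaining gene, Mrpl33, was not analysed here. The RNA came from mouse embryos at the 2-cell stage, when the embryo's own genome is switched on and RNA stored in the egg is cleared. Control embryos were cultured in G1 medium with the solvent DMSO (4 libraries). Treated embryos were cultured in G1 medium with 6 µM triclocarban, abbreviated TCC, an antibacterial compound of soaps and personal care products (4 libraries). The labels give no strain, no hour of collection and no number of embryos per library. Nothing in the labels tells if a group's libraries are separate cultures or litters, so the p-values rest on a spread that may be technical.

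Mitochondria keep a small genome of their own, which encodes core subunits of the respiratory chain and the RNAs of the mitochondrial ribosome. The proteins of that ribosome are all encoded in the nucleus, made in the cytosol and imported. Some descend from proteins of the bacterial ribosome, and others are counted as specific to mitochondria. In the usual nomenclature Mrps18a and Mrps18b are in the second class although they are relatives of a bacterial protein, whose direct counterpart is Mrps18c. The large subunit (Mrpl genes) joins amino acids and the small subunit (Mrps genes) reads the messenger RNA. A few symbols are misleading. Mrps30 and Mrps18a encode proteins that sit in the large subunit. The product of Mrps36 is now known as a component of the α-ketoglutarate dehydrogenase complex rather than of the ribosome, so it was counted with the members and placed in neither subunit.

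Levels are in FPKM, the number of sequenced fragments corrected for transcript length and for the mapped fragments of the library, so each value is a share of a library's polyadenylated RNA. A lower share cannot be told apart from a rise of other transcripts, and fewer contributing cells cannot be told apart from less RNA per cell. The table holds no fragment counts, so no counting interval is given. The FPKM of all genes summed to between 477882 and 605986 per library. At least 1 FPKM was reached by 12828 to 13541 genes in the control libraries and by 11788 to 11957 in the treated ones. Mitochondrially encoded genes made up 16.6 to 24.3% of all FPKM in control libraries and 11.1 to 17.6% in the treated ones. Of 11 genes of the oocyte and early embryo, all were detected, 5 were higher (Ooep, Nlrp5, Zar1, Bmp15 and Dppa3), 2 were lower (Zp3 and Zfp352) and 4 did not pass. These were 45.5% higher and 18.2% lower, beside 11.3% and 30.8% of all genes tested. The calls of Bmp15 and Dppa3 were each lost in 8 of 20 alternative analyses and that of Zfp352 in 3. The summed level of the 11 genes, to which Dppa3 gave more than any other, was 3495 to 4260 FPKM in controls and 5670 to 8094 in treated libraries. Of 11 cumulus and granulosa cell genes, 3 passed the filter, and Inha and Amh were listed at 0. The sum of all 11 was 5.32 to 10.3 FPKM in controls and 9.86 to 18.1 in treated libraries. Cyp19a1 and Fshr were higher and Tnfaip6 was lower, and the call of Fshr was lost in 7 of 20 alternative analyses. Of 8 sperm genes, 2 passed the filter, and Smcp was listed at 0. The sum of all 8 was 25.5 to 60.9 FPKM in controls and 42.2 to 47.0 in treated libraries. Most of that sum was Odf2, which did not pass (23.85 to 55.0 FPKM in controls, 34.2 to 37.5 in treated libraries). Prm2 was higher, at 1.12 to 5.01 FPKM in controls and 6.87 to 8.9 in treated libraries. The part of these differences in the values below was not tested.

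With triclocarban, the genes of the mitochondrial ribosome moved in both directions within each of its subunits. Of the 76 members tested, 24 fell and 21 rose, and 31 did not pass the threshold, which does not show them to be unchanged (limma on log2(FPKM + 1), adjusted p of 0.05 over all 12941 genes tested). The lower members made up 31.6% of those tested, beside 30.8% of all genes tested. The higher members made up 27.6%, beside 11.3% of all genes tested. No test compares the members with other genes. Of the lower members 21, and of the higher members 18, changed by at least 1 log2 unit. The deepest fall was that of Mrpl43 at -3.22 and the largest rise that of Mrpl53 at 2.53. The tested members lie on 17 chromosomes. In GRCm38, Mrpl43 is at chr19:45004829-45006442 (minus strand) and Mrpl49 at chr19:6053622-6057785 (minus strand). Mrpl53 is at chr6:83109040-83109939 (plus strand), Mrps33 at chr6:39801804-39810988 (minus strand) and Mrps35 at chr6:147042764-147073991 (plus strand).

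The median change of the members was -0.14 on the log2(FPKM + 1) scale, beside -0.19 for all genes tested. The quartiles of the members were -1.20 and 0.96, beside -1.06 and 0.43 for all genes tested. All 4 treated libraries lay below all 4 controls in 23 members, beside 30.0% of all genes tested. They lay above all controls in 17 members, beside 10.2% of all genes tested. In the other 36 members the groups overlapped. The balance of the directions depended on the scaling of the libraries. Among members past the threshold, 46.7% were higher with the deposited values. Scaling by the median of ratios gave 28 higher and 20 lower members (58.3% higher), and quantile normalization gave 30 higher and 19 lower (61.2% higher). Among all genes past the threshold these shares were 26.9%, 45.3% and 50.6% in the same order. The scalings moved the median of all genes tested to 0.06 and 0.14 and that of the members to 0.13 and 0.22.

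**Figure D1:**
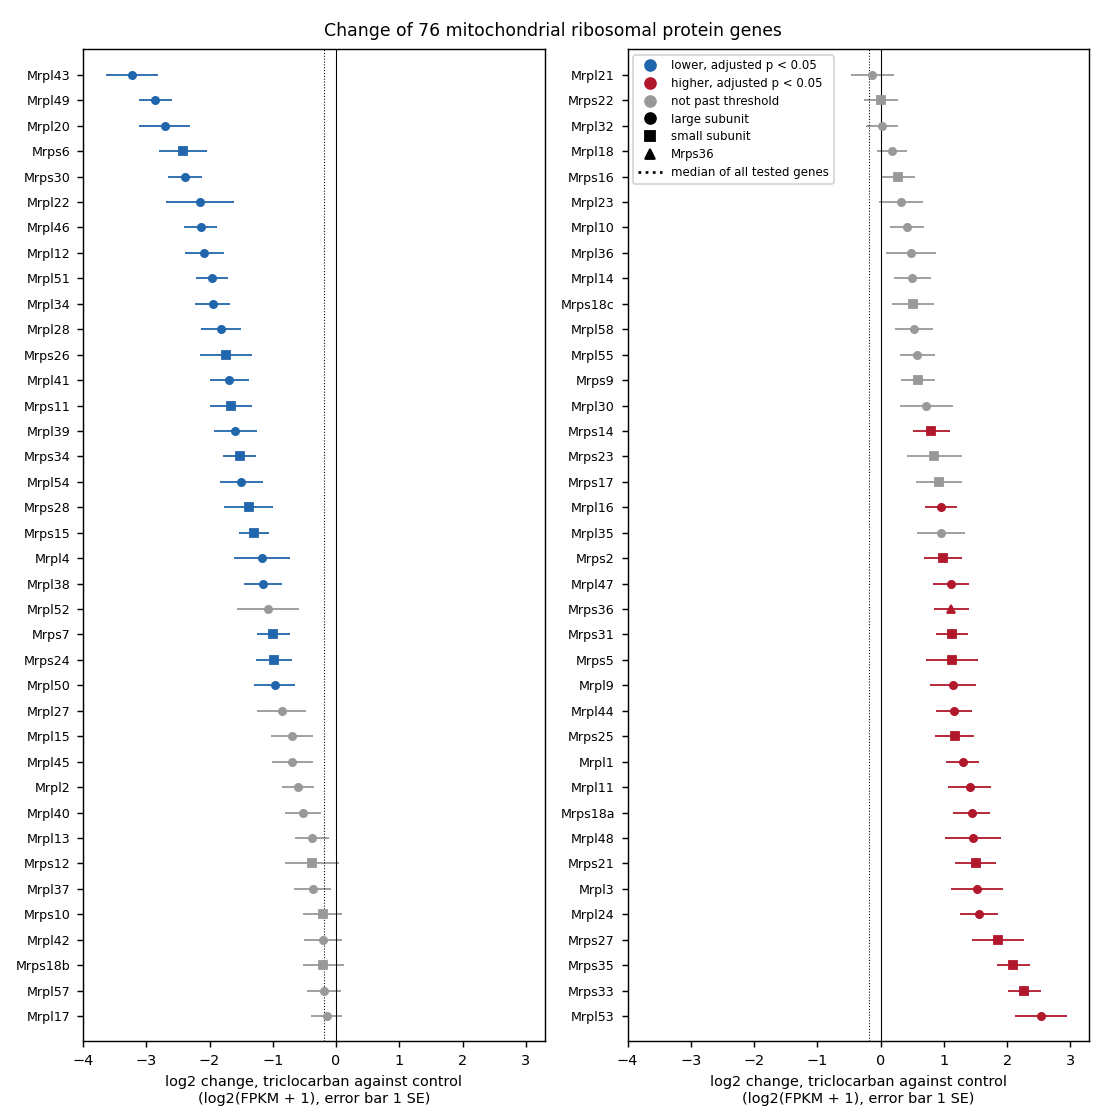
Change of each of the 76 tested members with triclocarban on the log2(FPKM + 1) scale, with a bar of 1 standard error; circles are large-subunit genes, squares small-subunit genes and the triangle is Mrps36. Blue marks the 24 lower and red the 21 higher members, grey those not past the threshold, and the dotted line is the median of all genes tested, -0.19.

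**Figure D2:**
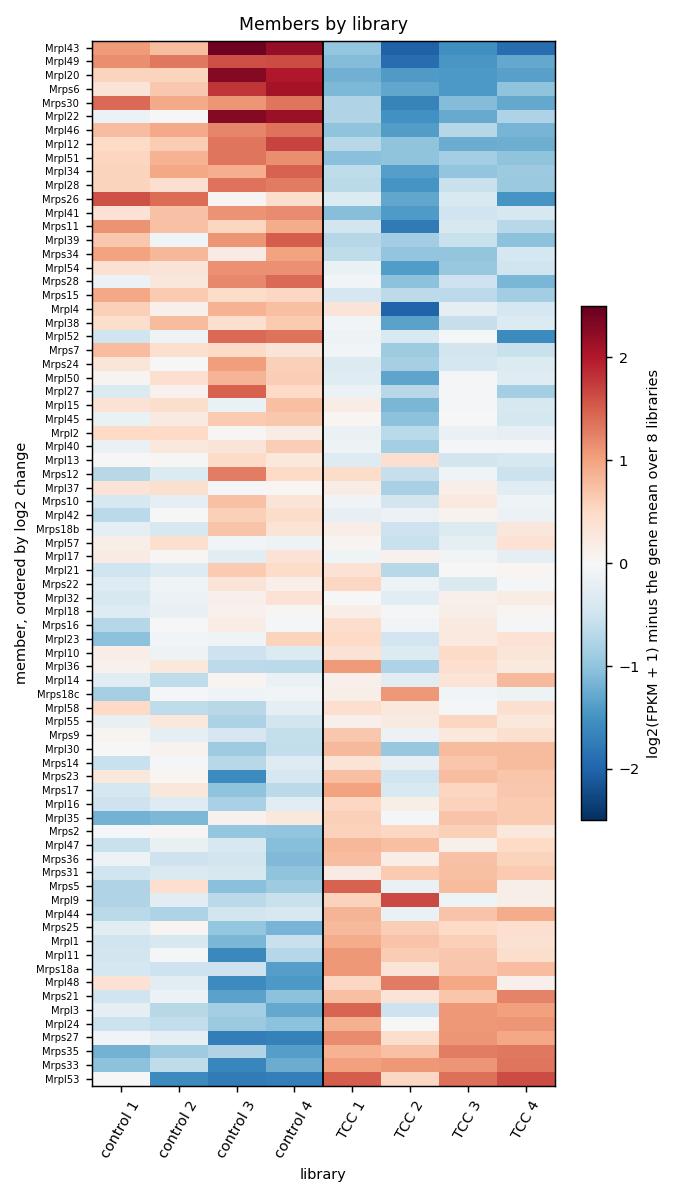
Level of each tested member in each of the 8 libraries, as log2(FPKM + 1) minus the gene's own mean over the libraries. Red is above and blue below the gene's mean. Genes at the top are higher in the controls and genes at the bottom are higher in the treated libraries. Control libraries 1 and 2 differ from controls 3 and 4 within many rows.

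In the large subunit, 16 of 49 tested genes fell (32.7%, beside 30.8% of all genes tested), 11 rose (22.4%, beside 11.3%) and 22 did not pass the threshold. The 6 deepest falls among all members were Mrpl43, Mrpl49, Mrpl20, Mrps6, Mrps30 and Mrpl22. Of these 6 genes, 5 encode large-subunit proteins, as do 49 of all 76 tested members. Mrpl43, a protein specific to mitochondria, was at 21.98, 17.8, 58.6 and 49.4 FPKM in control libraries 1 to 4 and at 4.63, 1.71, 2.83 and 1.95 FPKM in treated libraries 1 to 4. Every treated library lay below every control. Its mean fell 13.3-fold, from 37.0 ± 20.1 to 2.78 ± 1.32 FPKM (mean ± SD, n = 4 libraries in either group). The log2 change was -3.22 ± 0.41 (SE, adjusted p = 0.000157, limma).

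Mrpl49, also specific to mitochondria, had the smallest SD among controls of these 6 genes. Its controls held 44.1, 48.9, 60.3 and 61.5 FPKM and its treated libraries 8.48, 4.39, 6.37 and 7.32 FPKM. The groups were far apart, with means of 53.7 ± 8.52 and 6.64 ± 1.73 FPKM and a log2 change of -2.86 ± 0.26 (adjusted p = 4.82e-05, limma). Mrpl20, whose bacterial counterpart binds ribosomal RNA early in assembly, was at 25.9, 25.8, 88.0 and 71.5 FPKM in controls and at 6.86, 5.85, 5.68 and 6.10 FPKM in treated libraries. The controls lay in pairs far from each other, and the treated libraries lay close together below both pairs (log2 change -2.71 ± 0.40, adjusted p = 0.000341, limma). Mrps30 was at 99.3, 71.7, 79.5 and 93.7 FPKM in controls and at 21.5, 10.8, 16.7 and 14.5 FPKM in treated libraries, with no such pairing of the controls (log2 change -2.39 ± 0.27, adjusted p = 8.55e-05, limma).

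Mrpl22, a protein of the tunnel through which the new chain leaves, had the widest control spread of the 6, at 26.1, 29.0, 145.8 and 133.4 FPKM. Its treated libraries were at 16.9, 9.58, 11.5 and 16.5 FPKM. They lay below all controls, nearer to controls 1 and 2 than to controls 3 and 4 (log2 change -2.15 ± 0.54, adjusted p = 0.00799, limma). Mrpl46, of the central protuberance on top of the large subunit, was at 31.4, 36.0, 43.3 and 47.6 FPKM in controls and at 8.5, 6.23, 10.6 and 7.47 FPKM in treated libraries (log2 change -2.14 ± 0.26, adjusted p = 0.000125, limma). Mrpl51 was the most abundant of the lower members by control mean, at 67.1, 84.9, 117.7 and 104.2 FPKM. In treated libraries it was at 21.7, 22.4, 25.01 and 22.3 FPKM, a 4.09-fold fall (log2 change -1.96 ± 0.25, adjusted p = 0.000159, limma). Mrpl34, Mrpl28, Mrpl41, Mrpl39, Mrpl54, Mrpl4, Mrpl38 and Mrpl50 also fell, with log2 changes from -1.95 for Mrpl34 to -0.97 for Mrpl50. The call of Mrpl50 was lost in 8 of 20 alternatives, among them those without treated library 4 or without control 2, 3 or 4.

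Among the large-subunit genes that rose, Mrpl53, a protein specific to mitochondria, had the largest change. It was at 4.24, 0.75, 0.56 and 0.61 FPKM in controls and at 13.9, 6.57, 12.7 and 15.4 FPKM in treated libraries. Control 1 stood apart from the other controls, and all treated libraries lay above it (log2 change 2.53 ± 0.41, adjusted p = 0.000648, limma). Mrpl24, near the exit of the tunnel, was at 27.2, 25.7, 20.6 and 19.1 FPKM in controls and at 74.9, 39.9, 85.5 and 87.2 FPKM in treated libraries. The groups did not overlap, and treated library 2 was the lowest of its group (log2 change 1.55 ± 0.30, adjusted p = 0.00162, limma).

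Mrpl3, whose bacterial counterpart reaches toward the site of peptide bond formation, was at 23.9, 17.2, 15.3 and 11.1 FPKM in controls and at 79.4, 19.4, 60.7 and 58.4 FPKM in treated libraries. Here the groups overlapped, because treated library 2 lay below control 1 (log2 change 1.52 ± 0.41, adjusted p = 0.0115, limma). Without controls 3 and 4 the rise of Mrpl3 was 1.22, with an adjusted p of 0.11. Mrpl48, of the central protuberance, was at 124.1, 79.7, 31.3 and 34.9 FPKM in controls and at 138.4, 236.9, 188.5 and 104.5 FPKM in treated libraries. The groups overlapped, since treated library 4 lay below control 1 (log2 change 1.46 ± 0.44, adjusted p = 0.0200, limma), and without controls 3 and 4 the value was 0.68 with an adjusted p of 0.207. Leaving out treated library 2 or 3, or control 3 or 4, alone gave an adjusted p of 0.0525 to 0.0613 for Mrpl48. Mrps18a was at 4.40, 4.13, 4.12 and 1.83 FPKM in controls and at 14.5, 8.23, 10.9 and 11.6 FPKM in treated libraries, with no overlap (log2 change 1.44 ± 0.29, adjusted p = 0.00240, limma).

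Mrpl1, whose bacterial counterpart forms the mobile stalk by which spent transfer RNA leaves, was at 3.49, 3.77, 1.84 and 3.28 FPKM in controls and at 11.0, 9.27, 8.55 and 7.18 FPKM in treated libraries (log2 change 1.3 ± 0.26, adjusted p = 0.00227, limma). All treated libraries lay above all controls. The other large-subunit genes that rose were Mrpl11 (1.41), Mrpl44 (1.16), Mrpl9 (1.14), Mrpl47 (1.11) and Mrpl16 (0.95). The call of Mrpl9 was lost in 7 of 20 alternatives, among them those without treated library 1, control 3 or control 4. Mrpl44 carries a fold related to ribonuclease III.

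**Figure D3:**
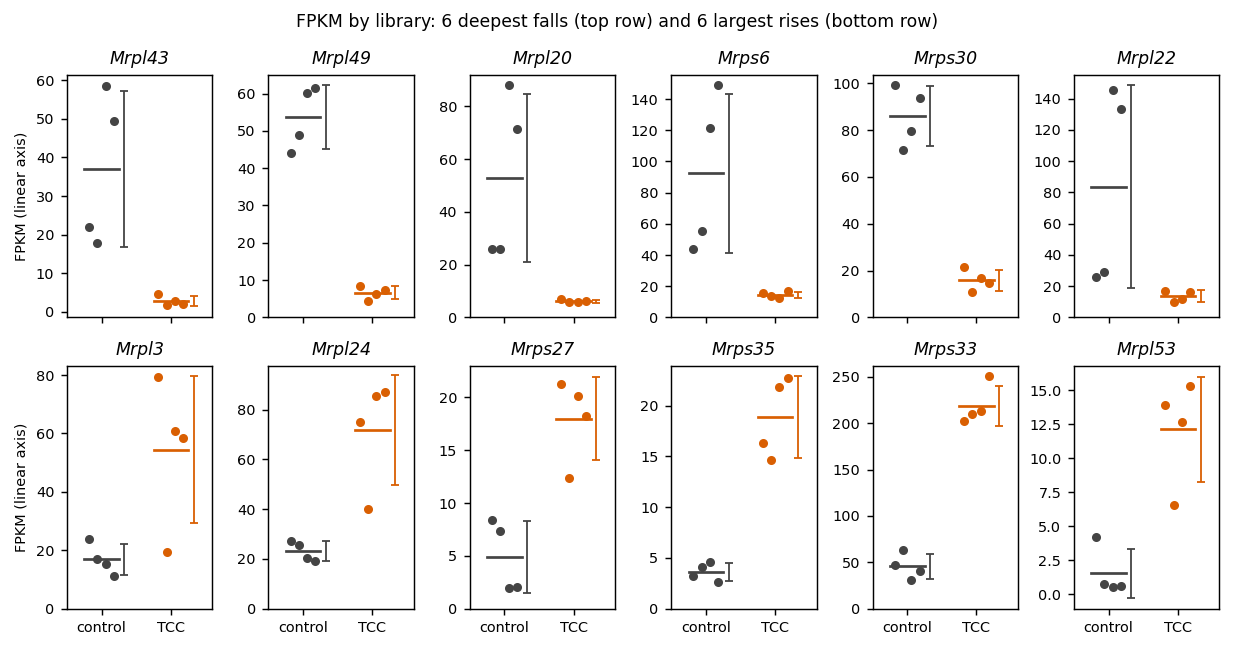
FPKM on linear axes of the 6 members with the deepest falls (top row) and the 6 with the largest rises (bottom row) in the 4 control and 4 treated libraries; each point is a library, the line the mean and the bar the SD. The groups do not overlap in any panel except that of Mrpl3, where the lowest treated library, at 19.4 FPKM, lies below control 1 at 23.9 FPKM.

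In the small subunit, 9 of 26 tested genes rose (34.6%, beside 11.3% of all genes tested), 8 fell (30.8%, beside 30.8%) and 9 did not pass the threshold, and the median log2 change was 0.40. The most abundant gene that rose was Mrps33, a small protein specific to mitochondria. It was at 47.7, 62.8, 31.1 and 41.0 FPKM in controls and at 202.2, 209.6, 212.6 and 250.7 FPKM in treated libraries. The treated values lay close together and far above the controls, with means of 45.7 ± 13.3 and 218.8 ± 21.8 FPKM (log2 change 2.27 ± 0.26, adjusted p = 0.000104, limma). No other tested member had a higher mean in the treated libraries.

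Mrps35, another protein specific to mitochondria, was at 3.19, 4.11, 4.63 and 2.63 FPKM in controls and at 16.3, 14.6, 21.9 and 22.7 FPKM in treated libraries. Its mean FPKM rose 5.19-fold, and the log2 change was 2.10 ± 0.26 (adjusted p = 0.000156, limma). Mrps27, which belongs to the pentatricopeptide repeat family of RNA-binding proteins, was at 8.36, 7.35, 1.97 and 2.03 FPKM in controls and at 21.2, 12.4, 20.2 and 18.2 FPKM in treated libraries (log2 change 1.86 ± 0.41, adjusted p = 0.00385, limma). All treated libraries of both genes lay above all controls, although controls 1 and 2 of Mrps27 were far above controls 3 and 4.

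Mrps21 was at 31.5, 40.4, 17.1 and 21.5 FPKM in controls and at 75.7, 56.1, 73.2 and 107.0 FPKM in treated libraries (log2 change 1.5 ± 0.32, adjusted p = 0.00290, limma). Mrps31 was at 1.65, 1.94, 1.84 and 0.86 FPKM in controls and at 3.35, 4.93, 5.30 and 4.90 FPKM in treated libraries (log2 change 1.13 ± 0.25, adjusted p = 0.00363, limma). The groups of both genes were separate, but Mrps31 was low throughout. Mrps25 (1.17), Mrps5 (1.13), Mrps2 (0.98) and Mrps14 (0.80) also rose, with overlapping groups in Mrps5 and Mrps14. The calls of Mrps5, Mrps14 and Mrps2 were lost in 11, 9 and 5 of 20 alternatives, for each of them without treated library 1 or 3 or without control 3 or 4. Mrps36, of neither subunit, rose from 11.9 ± 3.39 to 26.6 ± 4.84 FPKM (log2 change 1.12 ± 0.28, adjusted p = 0.00736, limma).

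Mrps6 had the deepest fall of the small-subunit genes. It was at 43.6, 55.5, 121.6 and 148.9 FPKM in controls and at 15.4, 13.6, 12.2 and 16.8 FPKM in treated libraries (log2 change -2.42 ± 0.38, adjusted p = 0.000484, limma). All treated libraries lay below the lowest control, and the controls again lay in pairs. Mrps26 (-1.74), Mrps11 (-1.66), Mrps34 (-1.52), Mrps28 (-1.38), Mrps15 (-1.3), Mrps7 (-0.99) and Mrps24 (-0.98) fell as well. Of these, Mrps28 alone had overlapping groups, its treated library 1 at 11.4 FPKM lying above control 1 at 10.8 FPKM. Without control 3, Mrps24 did not pass.

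Genes whose proteins neighbour each other in the ribosome did not all share a direction. The groupings in this paragraph were made after the values were seen and carry no test of their own. In the stalk that recruits translation factors, Mrpl12 was at 24.4, 27.2, 44.4 and 57.3 FPKM in controls and at 10.1, 8.05, 6.66 and 6.76 FPKM in treated libraries (log2 change -2.08 ± 0.31, adjusted p = 0.000380, limma). Its treated libraries lay below all controls. Mrpl54 fell as well (-1.5), whereas Mrpl11 (1.41) and Mrpl53 (2.53) rose, and Mrpl10, the anchor of Mrpl12, had a value of 0.41 and did not pass (adjusted p = 0.252, limma). In the central protuberance, Mrpl46 (-2.14) and Mrpl38 (-1.16) fell and Mrpl48 (1.46) rose, while Mrpl18, Mrpl40, Mrpl55 and Mrpl58 did not pass. Around the exit tunnel, Mrpl22 (-2.15) fell, Mrpl24 (1.55) and Mrpl47 (1.11) rose, and Mrpl17, Mrpl23 and Mrpl45 did not pass.

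Mammals carry several relatives of a single bacterial protein of the small subunit in Mrps18a, Mrps18b and Mrps18c. Mrps18a, described above, rose. Mrps18b was at 25.5, 22.7, 50.7 and 38.5 FPKM in controls and at 33.99, 20.96, 23.8 and 37.3 FPKM in treated libraries, with overlapping groups (log2 change -0.20 ± 0.32, adjusted p = 0.638, limma). Mrps18c was at 8.94, 16.3, 15.4 and 15.7 FPKM in controls and at 18.4, 36.5, 15.8 and 15.0 FPKM in treated libraries, again with overlap (log2 change 0.51 ± 0.33, adjusted p = 0.232, limma). Treated library 2 stood apart, and without it the value of Mrps18c was 0.24. Without control 1, the lowest control, it was 0.32. After quantile normalization the value of Mrps18c was 0.9 and passed (adjusted p = 0.0485, limma). The differences between the changes of these relatives were not tested. The sign of the Mrps18b value was not stable, at -0.20 with the deposited values, 0.09 when scaled by the median of ratios and 0.08 when quantile normalized. It was 0.01 with library weights and 0 without control 3.

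The most abundant members by control mean, Mrpl40 and Mrpl18, did not pass the threshold, and Mrpl51, the next, fell. Mrpl40 was at 120.9, 162.5, 170.9 and 209.5 FPKM in controls and at 124.2, 74.9, 134.0 and 133.6 FPKM in treated libraries (log2 change -0.52 ± 0.28, adjusted p = 0.165, limma). Mrpl18 was at 98.2, 108.2, 133.2 and 125.7 FPKM in controls and at 138.8, 121.1, 136.5 and 128.1 FPKM in treated libraries (log2 change 0.18 ± 0.23, adjusted p = 0.557, limma). In both genes the groups overlapped.

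Several other members with a known special role did not pass either, and in each the groups overlapped. Mrpl45, which holds the ribosome at the inner membrane, was at 26.4, 35.1, 47.7 and 48.0 FPKM in controls and at 31.0, 14.2, 30.2 and 21.8 FPKM in treated libraries (log2 change -0.69 ± 0.32, adjusted p = 0.0987, limma, and 0.0483 without control 1). Mrpl58, a peptidyl-tRNA hydrolase built into the ribosome, was at 5.38, 1.92, 1.79 and 2.80 FPKM in controls and at 5.07, 4.40, 3.43 and 4.97 FPKM in treated libraries (log2 change 0.53 ± 0.30, adjusted p = 0.175, limma, and 0.0310 without control 1). Mrps12, related to the bacterial protein that sets decoding accuracy, was at 4.05, 5.5, 18.96 and 10.6 FPKM in controls and at 10.3, 4.49, 6.62 and 4.61 FPKM in treated libraries (log2 change -0.38 ± 0.43, adjusted p = 0.506, limma). Its sign also depended on the processing, at 0.05 after quantile normalization and 0.32 without controls 3 and 4. Without controls 1 and 2 the value of Mrps12 was -1.09 and passed (adjusted p = 0.0384, limma).

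The members nearest the threshold were Mrpl4, just inside, and Mrpl35, just outside. Mrpl4 was at 48.5, 34.7, 58.9 and 53.8 FPKM in controls and at 39.9, 7.11, 27.1 and 23.1 FPKM in treated libraries (log2 change -1.17 ± 0.44, adjusted p = 0.0488, limma). Its groups overlapped, and without treated library 2 the value was -0.70 with an adjusted p of 0.0588. Leaving out treated library 3 or 4 or control 1, 3 or 4 also ended the call of Mrpl4, with an adjusted p of 0.0617 to 0.111. Mrpl35 was at 2.33, 2.47, 7.13 and 8.08 FPKM in controls and at 10.4, 6.38, 11.3 and 10.9 FPKM in treated libraries (log2 change 0.96 ± 0.38, adjusted p = 0.0599, limma). It passed without treated library 2, control 3 or control 4, with an adjusted p of 0.0273 to 0.0413. Mrpl19, below the filter, was at 0.23, 1.08, 0.60 and 0.28 FPKM in controls and at 0.24, 1.08, 0.06 and 0.36 FPKM in treated libraries.

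Read by subunit and origin together, the medians of the genes specific to mitochondria lay furthest apart, which is a description with no test. Of 21 tested large-subunit genes specific to mitochondria, 10 fell and 4 rose, with a median log2 change of -0.97. Of 10 small-subunit genes specific to mitochondria, 2 fell and 5 rose, with a median of 0.99. Over all genes tested, 30.8% fell and 11.3% rose. Without Mrps18a and Mrps18b these were 10 lower and 3 higher of 20 (median -1.02) and 2 lower and 5 higher of 9 (median 1.13). The genes with a bacterial counterpart lay between these, with 6 lower and 7 higher of 28 in the large subunit (median 0.25) and 6 lower and 4 higher of 16 in the small subunit (median 0.04). Per library, the mean log2(FPKM + 1) of the small-subunit genes specific to mitochondria, less the mean of all genes tested, was 0.28, 0.33, -0.12 and -0.01 in controls and 1.14, 0.86, 1.07 and 1.11 in treated libraries. For the large-subunit genes specific to mitochondria the same quantity was 0.78, 0.72, 1.10 and 1.16 in controls and 0.70, 0.25, 0.67 and 0.54 in treated libraries. Both differences between the groups were without overlap.

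**Figure D4:**
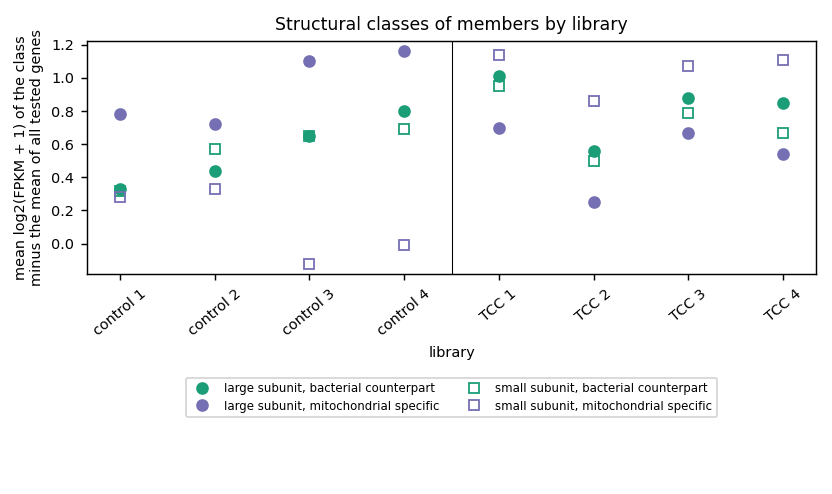
Mean log2(FPKM + 1) of the members of 4 structural classes in each library, less the mean of all genes tested in that library. For the small-subunit genes specific to mitochondria the treated libraries, at 0.86 to 1.14, lie above the controls, at -0.12 to 0.33, and for the large-subunit genes specific to mitochondria they lie below.

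As a whole, the members held a nearly constant share of the FPKM sum, at 0.346, 0.363, 0.394 and 0.400% in controls and 0.389, 0.355, 0.366 and 0.362% in treated libraries. The groups overlapped. The summed FPKM of the large-subunit genes was 1336, 1405, 1774 and 1840 in controls and 1317, 1086, 1314 and 1213 in treated libraries, and that of the small-subunit genes was 494.2, 550.3, 537.8 and 574.8 in controls and 766.5, 591.7, 721.9 and 794.0 in treated libraries. The ratio of the large to the small sum was 2.7, 2.55, 3.3 and 3.2 in controls and 1.72, 1.83, 1.82 and 1.53 in treated libraries, with every treated library below every control.

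Mrps33 carried much of that shift. It made up 9.65, 11.4, 5.79 and 7.14% of the small-subunit sum in controls and 26.4, 35.4, 29.4 and 31.6% in treated libraries. Without Mrps33, the ratio was 2.99, 2.88, 3.5 and 3.45 in controls and 2.33, 2.84, 2.58 and 2.23 in treated libraries. The groups then still did not overlap, but treated library 2 at 2.84 was next to control 2 at 2.88.

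The controls were split in many members, as in the series as a whole. In 16 of the 24 lower members (66.7%), controls 1 and 2 were both below controls 3 and 4, as in 62.8% of all lower genes, with the reverse order in Mrps26 and Mrps15. In 13 of the 21 higher members (61.9%) controls 1 and 2 were both above controls 3 and 4, as in 78.5% of all higher genes, with the reverse order in Mrpl44. In most of these members controls 1 and 2 therefore lay nearer to the treated libraries. Without controls 1 and 2 the counts were 28 lower and 25 higher members, beside 32.6% lower and 21.9% higher of all genes tested. Without controls 3 and 4 they were 21 lower and 15 higher, beside 25.1% and 5.37% of all genes tested. Treated library 2 was the lowest treated library in 49 of 76 members (64.5%), beside 45.1% of all genes tested. Without it 24 members were lower and 25 higher, beside 32.3% and 14.0% of all genes tested. Why these libraries stand apart was not tested.

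The lower members had a shorter median exon length than the higher ones. The median exon length was 1678.5 bases in the lower, 3229 bases in the higher and 2875 bases in the other tested members, from an annotation that is not the release behind the table. Over all genes tested the order was the opposite, with medians of 3341 bases in the lower and 3046 bases in the higher genes. Of members with at most 2000 bases, 14 fell and 5 rose, and of longer members 10 fell and 16 rose. Among all genes tested, 36.0% fell and 14.6% rose up to 2000 bases, and 28.9% fell and 10.1% rose above. Across the 76 members, Spearman's rho of length and log2 change was 0.29 (Pearson's r 0.27), beside 0.06 (0.07) across all genes tested with a length. These genes share libraries and are not independent. Levels differed too, with a median control mean of 36.0 FPKM in the lower members and 10.2 FPKM in the higher ones, and the part of length and level in the changes was not tested.

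Exons of 28 members overlap exons of a gene on the other strand, and no strand setting is given in the sources used here, so reads in these stretches cannot be assigned. The overlap is longest for Mrps25, where 3533 bases are shared with Nr2c2, a nuclear receptor gene. The level of Nr2c2 went from 46.4 to 2.67 FPKM (means) while that of Mrps25 went from 11.3 to 25.1 FPKM. Mrpl46 and Mrps11, both lower, overlap each other by 173 bases. Mrpl43 overlaps Twnk, the mitochondrial helicase gene, by 358 bases, and the mean of Twnk was 5.99 FPKM in controls and 1.25 FPKM in treated libraries. Processed pseudogenes of ribosomal protein genes can also share reads with their parents, which these values do not resolve.

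Some members start close to another gene that runs the opposite way, so that the stretch between them lies before both. A neighbour starting within 1000 bases on the opposite strand was found for 18 members, and 12 of these neighbours were tested. The 4 lower members with a tested neighbour had lower neighbours in every case, and the 1 higher member had a higher neighbour. By the same rule, 50.6% of the neighbours of 360 lower genes were lower and 11.1% of the neighbours of 108 higher genes were higher, over all genes tested. So few members do not tell if they differ from other genes. Of the 7 members that did not pass, 2 had a lower and 2 a higher neighbour. Mrpl49 (-2.86) starts opposite Fau (-1.56), which encodes a cytosolic ribosomal protein fused to a ubiquitin-like protein. Mrpl51 (-1.96) starts opposite Ncapd2 (-1.97), a condensin subunit, Mrpl50 (-0.97) opposite Zfp189 (-0.90), a zinc finger gene, and Mrpl41 (-1.69) opposite Pnpla7 (-1.19), a lysophospholipase gene. Mrps27 (1.86) starts opposite Ptcd2 (1.46, adjusted p = 0.0494, limma), another pentatricopeptide repeat gene.

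The neighbours did not always move with the member. Mitd1, opposite Mrpl30, rose from 3.27 ± 0.81 to 23.3 ± 6.23 FPKM (SD, n = 4 each, log2 change 2.49, adjusted p = 8.25e-05, limma). Mrpl30 itself had a value of 0.72 and did not pass (adjusted p = 0.191, limma). Helq, opposite Mrps18c, rose by 1.36 (adjusted p = 0.0128, limma), while Mrps18c had a value of 0.51. The difference between the changes of a member and its neighbour was not tested. The stretches between the starts of 6 such pairs are shown because they lie before both genes of a pair, and they leave out bases that either annotation used here places in a transcript. They are from RefSeq (GRCm38.p6), written 5′ to 3′ on the member's strand, with capitals for a match on either strand to the ETS, CCAAT or GC box letters given in the next paragraph.
Mrpl49 and Fau, chr19:6057786-6057843, minus strand: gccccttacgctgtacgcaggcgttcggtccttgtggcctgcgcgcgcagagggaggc
Mrpl51 and Ncapd2, chr6:125191702-125191800, plus strand: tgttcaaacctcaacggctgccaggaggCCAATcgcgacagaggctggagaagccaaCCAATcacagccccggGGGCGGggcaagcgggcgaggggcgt
Mrpl50 and Zfp189, chr4:49521094-49521175, minus strand: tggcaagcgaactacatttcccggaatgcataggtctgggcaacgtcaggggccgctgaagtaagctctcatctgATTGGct
Mrps27 and Ptcd2, chr13:99344706-99344785, plus strand: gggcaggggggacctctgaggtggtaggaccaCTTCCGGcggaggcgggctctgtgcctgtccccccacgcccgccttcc
Mrpl30 and Mitd1, chr1:37890412-37890476, plus strand: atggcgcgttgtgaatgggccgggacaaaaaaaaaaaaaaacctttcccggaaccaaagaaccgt
Mrps18c and Helq, chr5:100798601-100798626, plus strand: gaCTTCCGGcccgggaagcgcgggaa

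Promoter letters were searched on both strands in RefSeq windows of 300 bases, 250 before to 50 after the start, which held 74 windows of 68 members and 32851 windows in all. The motifs CCGGAAG, bound by ETS factors such as GABP, AAGATGGC, bound by YY1, and the core of the NRF1 site, which is GCGCA and GCGC with any 1 base between them, are known in promoters of genes for mitochondrial proteins. CCGGAAG was present in 33.8% of the members' windows and 8.86% of all windows, AAGATGGC in 16.2% and 2.75%, and the NRF1 core in 17.6% and 4.6%. CCAAT was present in 39.2% and 37.4%, GGGCGG, the GC box, in 52.7% and 35.7%, the E-box CACGTG in 9.46% and 7.15%, and TATAAA in 6.76% and 13.6%. CCGGAAG was present in 26.3% of the 19 windows of lower members, 30.4% of the 23 windows of higher members and 40.6% of the 32 windows of the others. AAGATGGC was present in 21.1%, 8.70% and 18.8% of these windows. GC content had medians of 60.3, 56.3 and 60.5% in the lower, higher and other windows and 52.7% in all windows. Several windows of 1 gene overlap, and a match of letters is no sign of binding.

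Other genes that the mitochondrial ribosome depends on were read from fixed lists and also went in different directions. Of the 5 ribosomal proteins with names of another form, Dap3, a GTP-binding protein of the small subunit, rose from 21.9 ± 12.2 to 79.5 ± 14.1 FPKM (log2 change 1.96 ± 0.38, adjusted p = 0.00167, limma), and Aurkaip1 (-1.18) and Gadd45gip1 (-1.01) fell. The call of Gadd45gip1 was lost without treated library 3 or 4, without control 3 or 4 and when scaled by the median of ratios or quantile normalized, each of which left 1 lower gene. Of 25 tested genes for assembly of the ribosome and modification of its RNA, 8 fell and 4 rose. Trub2, a pseudouridine synthase, fell from 19.4 ± 7.45 to 1.15 ± 0.33 FPKM (-3.18 ± 0.31, adjusted p = 5.21e-05, limma). Mterf4, which acts with a ribosomal RNA methyltransferase, rose from 4.11 ± 2.35 to 24.7 ± 8.68 FPKM (2.38 ± 0.36, adjusted p = 0.000388, limma), and Trmt61b, an RNA methyltransferase, fell (-2.78). Of 14 tested translation factors and related genes, 2 rose and 2 fell. This was 14.3% in each direction, beside 11.3% higher and 30.8% lower of all genes tested. Lrpprc, which stabilises mitochondrial messenger RNA, rose (1.02), as did the elongation factor Gfm1 (0.94), and Taco1, a translational activator, fell (-1.80). The other lower gene, Mtif2, an initiation factor (-0.79, adjusted p = 0.0459, limma), lost its call without treated library 1, 3 or 4 or without control 3 or 4, which left 1.

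Of 11 tested mitochondrial aminoacyl-tRNA synthetases, which load transfer RNA with amino acids, 5 fell and 1 (Rars2, for arginine, 1.20) rose. The same list held 3 tested subunits of the glutamyl-tRNA amidotransferase, of which Qrsl1 (-0.97) fell. Of the 14 tested genes of the list, 42.9% fell and 7.14% rose, beside 30.8% and 11.3% of all genes tested. With quantile normalization 3 genes of the list fell, beside 2847 of the 12941 genes tested. The filter at 5 FPKM, which tested fewer genes, left 2 lower, beside 2492 of 8050. The call of Qrsl1 was lost in 6 of 20 alternatives. Without treated library 2, 3 genes of the list rose. Mars2, for methionine, fell from 14.6 ± 6.20 to 0.53 ± 0.28 FPKM (log2 change -3.28 ± 0.32, adjusted p = 5.21e-05, limma), and Ears2 (-2.05) and Cars2 (-1.74) fell as well. Of 12 tested genes of mitochondrial transcription and RNA processing, 3 fell and 1 rose. The gene that rose was Mtpap, the poly(A) polymerase of mitochondria (1.18), with overlapping groups. Leaving out treated library 1, 3 or 4 or control 3 or 4 gave 0 higher genes in the list, and 7 genes fell without controls 1 and 2. The lower genes were Trmt10c (-2.65), a subunit of the mitochondrial ribonuclease P, Tefm (-1.74), an elongation factor, and Tfb2m (-1.42), an initiation factor. The call of Tefm was lost in 3 of 20 alternatives. Of the 13 messenger RNAs of the mitochondrial genome, 7 fell (53.8%, beside 30.8% of all genes tested) and none rose, with a median of -1.0. Median-of-ratios scaling left 4 lower, beside 3187 of the 12941 genes tested. Without controls 3 and 4 there were also 4 lower, beside 3243 genes. Without controls 1 and 2 there were 9, beside 4213 genes. mt-Cytb, a subunit of respiratory complex III, went from 17340 ± 5206 to 5547 ± 1204 FPKM (-1.62 ± 0.31, adjusted p = 0.00166, limma). Both mitochondrial ribosomal RNAs did not pass, with values of -0.18 for mt-Rnr2 and 0.20 for mt-Rnr1. Treated library 2 was the highest of its group for both, and without it the values were -0.36 and -0.23. In a polyadenylated library their level depends on their tails.

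The cytosolic ribosomal proteins gave another pattern. Of 81 genes, 75 fell (92.6%, beside 30.8% of all genes tested) and none rose, with a median log2 change of -2.18. The mean log2(FPKM + 1) of that list, less the mean of all genes tested, was 2.21, 2.54, 3.69 and 3.65 in controls and 1.22, 1.21, 1.32 and 1.36 in treated libraries. The same quantity for the mitochondrial ribosomal proteins was 0.45, 0.53, 0.67 and 0.76 in controls and 0.94, 0.51, 0.84 and 0.77 in treated libraries, with overlapping groups. The difference between the lists was not tested.

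**Figure D5:**
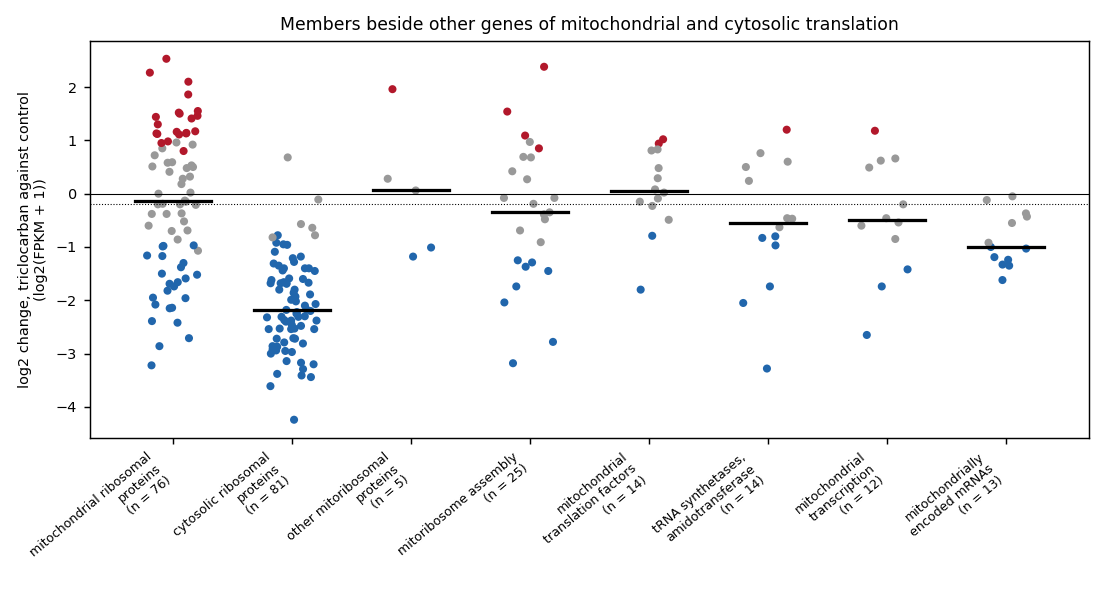
Log2 change of each tested gene in 8 lists of genes for the mitochondrial and cytosolic ribosomes, mitochondrial translation and mitochondrial RNA, with a bar at the list's median; blue is lower, red higher and grey not past the threshold. The mitochondrial ribosomal proteins lie on both sides of 0 with a median of -0.14, and the cytosolic ones lie mostly below 0 with a median of -2.18.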

How the data were processed

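Polyadenylated RNA of 2-cell embryos was sequenced in 4 control and 4 triclocarban libraries as paired reads, per the labels' protocols. These describe a preparation from micrograms of total RNA and also cDNA preamplification, and do not say which served these embryos. The authors deposited FPKM values for 37310 genes, with 1 column for each library. The submitters' processing notes name STAR, StringTie, featureCounts, DESeq2 1.30.1 and mm10. Strand setting, annotation release, the handling of multiply mapped reads and the tool behind the FPKM were not given in the sources used here. Since FPKM is not a count, no count model was used, and the depth of each library is not given. FPKM is relative to each library's total.

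Identifiers were matched to GENCODE M21 (GRCm38) for symbols, exon lengths and coordinates, with 87.4% matched. The 12941 genes that reached 1 FPKM in 4 or more of 8 libraries were tested with limma 3.58.1 in R 4.3.3 on log2(FPKM + 1), which understates changes of low genes. The fit used a mean-variance trend and a single treatment term, which left 6 residual degrees of freedom, and was two-sided, with Benjamini-Hochberg adjustment over the genes tested at 0.05. The limma step was tested on simulated data. Lists are described by counts and medians, with no set test. The members and lists were chosen with earlier results of these data known. Members named with values are the 8 deepest falls and 8 largest rises, the 3 highest control means, the higher members with the smallest adjusted p (up to 8), those nearest the threshold, the Mrps18 relatives, Mrpl12, Mrpl45, Mrpl58 and Mrps12. In other lists they are up to 3 genes with the smallest adjusted p, and Mtif2, Rars2, Qrsl1, Mtpap and the oocyte and embryo genes were named after their values were seen. Members named by structural region, promoter or overlap were chosen after their values were seen. Alternatives were other pseudocounts, filters, scalings, library weights, no trend, a replicate block and leaving out libraries. Python 3.11.15 with numpy 2.4.6 and pandas 2.3.3 was used for the tables.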

Additional observations from a re-analysis of the deposited data

Results flagged for a closer look

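In 5 of 58 groups of 4 libraries, for the named members, 1 library stood far from the other 3 of its group (Dixon's test at the 95% level), where chance gives about 1 in 20. Mrpl53 in control 1 was at 4.24 FPKM, with the other controls at 0.559 to 0.746. Mrps18a in control 4 was at 1.83 FPKM, with the others at 4.12 to 4.40. Mrps18c in control 1 was at 8.94 FPKM, with the others at 15.4 to 16.3. Mrps18c in treated library 2 was at 36.5 FPKM, with the other treated libraries at 15.0 to 18.4. Mrpl40 in treated library 2 was at 74.9 FPKM, with the others at 124.2 to 134.0.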

How the results depend on the processing

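Over 20 alternatives, 17 of the 24 lower and 13 of the 21 higher members passed in each, and every member past the threshold kept its sign wherever it was tested. Leaving out 1 library at a time gave 21 to 26 lower and 17 to 25 higher members. Mrpl4 lost its call in 13 alternatives, Mrps5 in 11, Mrps14 in 9, Mrpl50 in 8, Mrpl9 in 7, Mrpl48 in 6, Mrps2 in 5, Mrps24 in 4 and Mrps28 in 3. Same-numbered libraries deviated together with correlations of 0.338, 0.053, 0.095 and 0.104, and differently numbered ones with -0.293 to 0.144. The main fit did not pair libraries by number, and whether the numbers mark pairs was not tested. With a replicate block, 24 members were lower and 20 higher, beside 4061 lower and 1544 higher of all genes. Where values moved, the cause was not tested.

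The number of lower genes over all genes was 2492 of 8050 tested with the filter at 5 FPKM, and 3981 of 12941 tested in the main fit. The number of higher genes was 2637 with median-of-ratios scaling, 2915 with quantile normalization, 2838 without controls 1 and 2, 695 without controls 3 and 4, and 953 to 1860 with 1 library left out. Median-of-ratios scaling gave median changes of 0.13 for the members, 0.06 for all genes, 0.35 for the other mitochondrial ribosomal proteins, 0.28 for translation factors, -0.34 for the list of tRNA synthetases and amidotransferase subunits and -0.70 for mitochondrially encoded mRNAs. Quantile normalization gave 0.22 for the members, 0.14 for all genes, 0.39 for the other ribosomal proteins, 0.07 for assembly, 0.43 for translation factors, -0.16 for that synthetase list and -0.08 for mitochondrial transcription. Without controls 3 and 4 the medians were 0.22 for the members, -0.30 for all genes, 0.39 for the other ribosomal proteins, -0.01 for transcription, -0.60 for mitochondrially encoded mRNAs and -1.55 for cytosolic ribosomal proteins. Without controls 1 and 2 they were -0.12 for all genes, -0.28 for the other ribosomal proteins, -0.91 for transcription, -1.32 for mitochondrially encoded mRNAs and -2.76 for cytosolic ribosomal proteins. The filter at 5 FPKM gave 0.10 for assembly, 0.39 for translation factors and 0.04 for transcription. A pseudocount of 5 gave -0.11 for all genes and -0.26 for the tRNA synthetase list, no filter gave -0.04 for all genes, and library weights gave -0.16 for transcription. Mrps18b, which did not pass, was at 0.01 with library weights, 0.09 with median-of-ratios scaling, 0.08 with quantile normalization, 0.22 without controls 3 and 4 and -0.37 to 0 with 1 library left out. Mrps12 was at 0.05 with quantile normalization, 0.32 without controls 3 and 4 and -1.09 without controls 1 and 2. The number of fragments behind each FPKM is not known, so what depth limits could not be stated.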
